A study of Mus musculus with 9 samples.

Results

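Gated stroma of the bone marrow that lacked an Il7 reporter was compared with stroma of the same gate that carried it. The comparison rests on 4 of the 9 arrays of the series, chosen by their titles: 1 array of YFP-negative cells and 3 arrays of YFP-positive cells. Both groups came from mice of the C57Bl/6J strain that carried an Il7-Cre transgene and were heterozygous for Rosa-eYFP, labelled young adults, 6 to 12 weeks old. Cells of both groups were sorted as CD45-, lineage-negative, CD54+ and BP1+, and they were split by YFP. CD54 is the adhesion molecule encoded by Icam1, BP1 is the aminopeptidase encoded by Enpep, and CD45 is the leucocyte antigen encoded by Ptprc. Serving as further references were 3 arrays of CD54+BP1+ cells from C57Bl/6J wild-type mice, also 6 to 12 weeks old, which carry no reporter, and 2 arrays of total marrow. The YFP-negative RNA came from 2300 cells, and the other sorted samples held 1800 to 10000 cells. For total marrow the amount given is 10 ng of RNA. How many mice gave each sample, and whether replicates are separate animals, is not given in the sources used here, so the p-values measure only a spread between samples that may be technical. The YFP-negative group has no replicate of its own.

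Interleukin 7 is a cytokine that early B cells of the marrow need, and reticular stromal cells are its source there. These cells are also known for the chemokine Cxcl12, for stem cell factor (Kitl) and for the leptin receptor (Lepr), and many express genes of the adipocyte lineage. In a Rosa-eYFP reporter, Cre removes a stop sequence, so YFP marks a cell in which the Il7-driven Cre has been active at some time. YFP therefore reports a cell's history, while the array measures its RNA at the time of the sort. Other stromal cells in and around bone are fibroblasts of periosteum, tendon and vessel sheaths, which make small leucine-rich proteoglycans and microfibril proteins that organise collagen fibres.

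Intensities are log2 values on Affymetrix Mouse Gene ST 1.0 arrays, 1 per row (transcript cluster), and 21789 rows with 1 gene symbol were tested. As deposited, the YFP-negative array had a median of 3.46, against 4.51 to 4.60 in the other 8 arrays, and the median difference from the YFP-positive mean over all rows was -0.91. After cyclic loess normalization of the 9 arrays the medians were 4.51 to 4.57, and all values below are on that scale unless stated. Between YFP-positive arrays 1279 to 1727 rows differed by at least 1 log2 unit, between wild-type arrays 322 to 609, and between the YFP-negative array and each YFP-positive array 2134 to 2832.

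**Figure D1:**
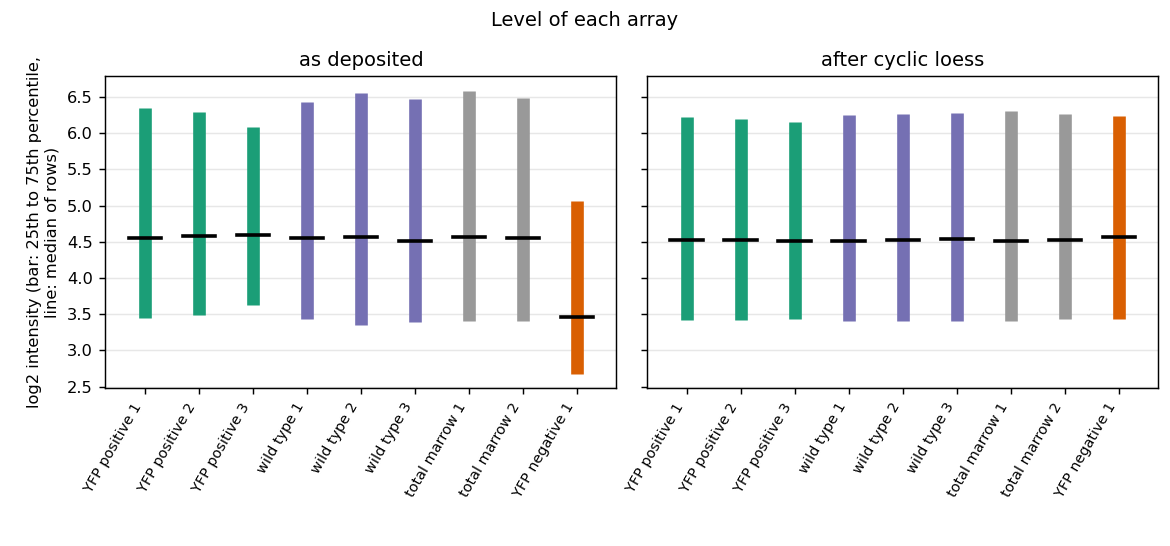
Log2 intensity of the tested rows on each of the 9 arrays, as deposited (left) and after cyclic loess (right); bars span the 25th to 75th percentile and black lines mark medians. The deposited YFP-negative median of 3.46 lies about a log2 unit under the other 8 arrays, and after cyclic loess its median is 4.57.

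The 4 markers that stood for fibrous stroma were at the level of dim rows in every YFP-positive array and high in the YFP-negative array. They had been proposed with results of these arrays known, so their values and fits are a description and no independent support. Cytl1, which encodes a small secreted cytokine-like protein, had log2 intensities of 4.26, 4.10 and 4.43 in the YFP-positive arrays and 11.00 in the YFP-negative array. Wild-type replicate 2 stood apart at 6.58, whereas the other wild-type arrays were at 4.13 and 4.03. Aspn encodes asporin, a small leucine-rich proteoglycan that binds collagen, and it had 2.67, 3.0 and 2.88 in YFP-positive cells, 2.91 to 2.94 in wild-type cells and 8.41 in YFP-negative cells. Igfbp6, a binding protein with a preference for insulin-like growth factor II, had 4.30, 4.23 and 4.20 in YFP-positive cells against 8.46. Pcolce2, an enhancer of the protease that trims procollagen, had 2.82, 2.83 and 3.06 against 6.23. For each of the 4 genes the YFP-negative value lay above all 8 other arrays, as it did for 19.0% of all rows. The log2 differences from the YFP-positive mean were 6.74 ± 0.89 (SE) for Cytl1, 5.56 ± 0.16 for Aspn, 4.22 ± 0.17 for Igfbp6 and 3.33 ± 0.15 for Pcolce2. In limma the adjusted p was 0.0162, 4.18e-05, 2.08e-04 and 3.28e-04 in that order, with the spread of the lone array taken from the other groups. None of the 4 was called when only the 4 reporter-strain arrays were fitted (adjusted p 0.0981 for Cytl1, Aspn and Igfbp6 and 0.208 for Pcolce2).

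Since ranks within an array do not depend on its overall level, the same genes were placed by percentile of the deposited values. Cytl1 moved from the 42.2nd to 46.4th percentile of the YFP-positive arrays to the 98.8th of the YFP-negative array. Aspn moved from the 3.4th to 11.8th percentile to the 94.4th, Igfbp6 from the 42.7th to 46.3rd to the 93.1st, and Pcolce2 from the 6.8th to 13.8th to the 80.0th. The YFP-negative percentile was thus far above the YFP-positive range for each of the 4 genes.

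The promoter windows of the 4 genes are shown because the genes were high together on 1 array. Each is the 250 bases before the start of the gene on the plus strand in RefSeq (GRCm38.p6): Cytl1 at chr5:37735269-37735518, Aspn at chr13:49544193-49544442, Igfbp6 at chr15:102143936-102144185 and Pcolce2 at chr9:95637378-95637627. Capitals mark matches on either strand to the TATA box (TATAAA), the GC box of Sp1 (GGGCGG), the CCAAT box, the AP-1 site (TGANTCA) and the core site of TEAD factors (CATTCC); no match overlapped another.
Cytl1: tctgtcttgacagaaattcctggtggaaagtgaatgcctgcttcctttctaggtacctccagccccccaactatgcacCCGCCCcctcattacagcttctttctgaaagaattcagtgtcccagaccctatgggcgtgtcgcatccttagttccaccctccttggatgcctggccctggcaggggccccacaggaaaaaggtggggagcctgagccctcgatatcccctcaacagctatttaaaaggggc
Aspn: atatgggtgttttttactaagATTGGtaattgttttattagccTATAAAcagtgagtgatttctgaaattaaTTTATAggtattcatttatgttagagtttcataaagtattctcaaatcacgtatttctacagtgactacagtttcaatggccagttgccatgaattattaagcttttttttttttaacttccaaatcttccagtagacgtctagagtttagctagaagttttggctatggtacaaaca
Igfbp6: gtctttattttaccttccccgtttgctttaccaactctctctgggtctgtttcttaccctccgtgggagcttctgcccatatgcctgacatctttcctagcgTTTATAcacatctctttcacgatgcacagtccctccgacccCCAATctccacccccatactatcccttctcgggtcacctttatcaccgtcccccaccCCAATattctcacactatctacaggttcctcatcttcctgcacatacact
Pcolce2: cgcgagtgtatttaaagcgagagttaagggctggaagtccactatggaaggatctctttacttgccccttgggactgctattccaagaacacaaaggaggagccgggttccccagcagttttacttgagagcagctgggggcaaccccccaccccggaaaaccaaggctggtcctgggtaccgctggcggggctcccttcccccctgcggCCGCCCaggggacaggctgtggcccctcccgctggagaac
Aspn held 2 TATA boxes and 1 CCAAT box, Igfbp6 held 1 TATA box and 2 CCAAT boxes, and Cytl1 and Pcolce2 held 1 GC box each. Neither the AP-1 nor the TEAD site was matched in the 4 windows. Among all 32851 windows of the same length in the reference, the TATA box occurred in 12.4%, the GC box in 32.7%, the CCAAT box in 33.8%, the AP-1 site in 6.75% and the TEAD site in 12.6%. GC content was 30.0% for Aspn, 49.6% for Igfbp6, 54.8% for Cytl1 and 61.2% for Pcolce2, against a median of 52.4% over all windows. No searched motif occurred in all 4 windows, and a match or its absence says nothing of a factor's binding.

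Across all rows, limma called 867 rows (3.98%), of which 570 were higher (2.62%) and 297 lower (1.36%) in the YFP-negative array than in the YFP-positive arrays, at a Benjamini-Hochberg adjusted p under 0.05. Of these, 501 of the 570 lay above all 8 other arrays and 249 of the 297 below all 8, against 19.0% and 18.7% of all rows. The same YFP-negative value sets the call, so this excess follows in part from the call and is no support for it. Of all rows, 31.8% lay above all 3 YFP-positive arrays and 30.4% below all 3. Without any test, 1114 rows (5.11%) were at least 1 log2 unit above the YFP-positive mean and 754 (3.46%) as far below, and 1091 (5.01%) and 712 (3.27%) of these were also outside the YFP-positive range. The calls lean on groups outside the comparison: with only the 4 reporter-strain arrays fitted, limma called 0 rows in either direction, with 1746 higher and 1172 lower at an unadjusted p under 0.05. Leaving out either total marrow array gave 183 higher and 61 lower calls, wild-type replicate 1 gave 367 and 172, wild-type replicate 2 gave 282 and 135, and YFP-positive replicate 3 gave 752 and 469. Of the 63 genes named here by rule and called, 22 stayed called in all 8 of these fits, and all 63 kept their direction when the arrays were rescaled in 5 other ways. The 2 fits that left out a total marrow array are the same fit for this contrast, because the marrow array that remains has no spread. They count as 1 check in every tally over the 8 fits. The array itself, its date and its amplification cannot be told apart from the YFP-negative group.

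**Figure D2:**
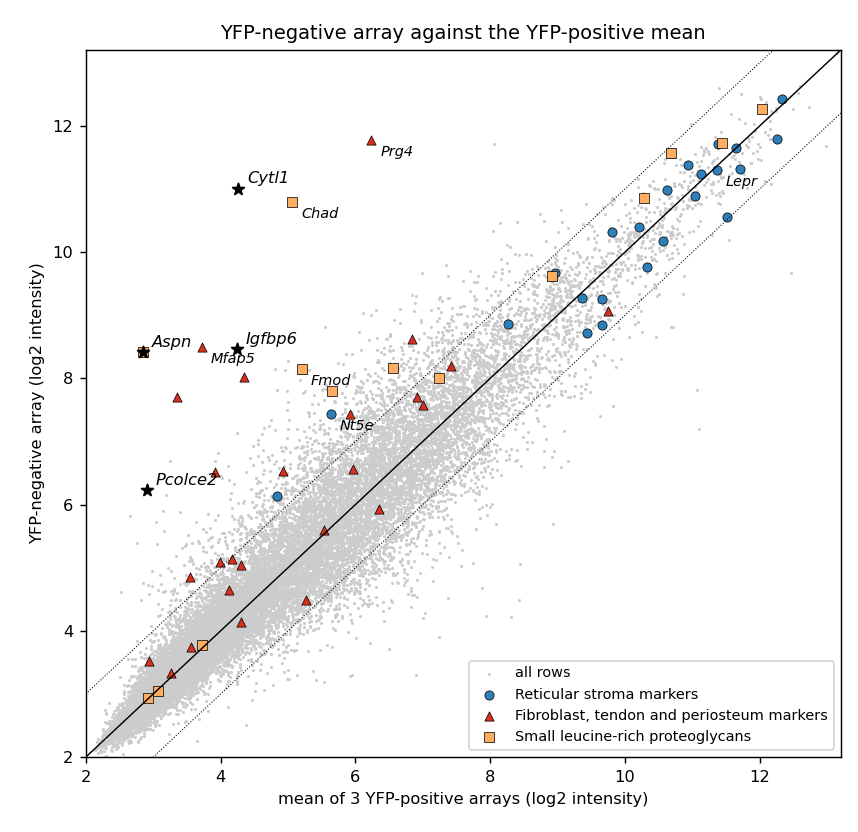
Log2 intensity on the YFP-negative array against the mean of the 3 YFP-positive arrays after cyclic loess, with 1 point per row; the solid line marks equality and dotted lines a difference of 1 log2 unit. Cytl1, Aspn, Igfbp6 and Pcolce2 (stars) lie far above the line. The 23 reticular stroma markers (blue) have a median difference of 0.01 on this scale, and of 0.42 with arrays centred on their medians.

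Of 28 measured markers of fibroblasts, tendon and periosteum, 9 were called higher and 0 lower, with a median difference of 0.79 against 0.00 over all rows. Counts for this and the other lists stand against 2.62% of all rows called higher and 1.36% called lower, so 1 call in a list of about 20 genes is near that background. The lists were chosen with earlier results of these data known, so their counts and medians are a description and no independent support. Mfap5 encodes a microfibril-associated glycoprotein, and it had 3.75, 3.48 and 3.94 in YFP-positive cells and 8.50 in YFP-negative cells. Dpt, the gene of the collagen-binding protein dermatopontin, had 3.08, 3.06 and 3.92 against 7.71. Wild-type replicate 3 was intermediate for both, at 6.35 for Mfap5 and 5.41 for Dpt. Thbs4 encodes a thrombospondin abundant in tendon and had 4.16, 4.14 and 4.74 against 8.02. Cd34, a surface sialomucin of fibroblasts as well as of blood progenitors, had 4.12, 3.91 and 3.74 against 6.51. These 4 genes did not overlap between the YFP-negative array and the 6 arrays of the other sorted cells, and Cd34 in total marrow (6.31 and 6.36) came close to the YFP-negative value. They are called members, so their separation follows in part from the call. Of all rows, 31.8% lay above all 3 YFP-positive arrays and 19.0% above all 8 other arrays. Log2 differences were 4.78 ± 0.75 for Mfap5 (adjusted p = 0.0237, limma), 4.36 ± 0.72 for Dpt (0.0266), 3.68 ± 0.31 for Thbs4 (0.00776) and 2.58 ± 0.16 for Cd34 (0.00211). The calls of Mfap5 and Dpt were lost without either total marrow array (adjusted p 0.0586 and 0.0618), and that of Dpt also without wild-type replicate 2 (0.0516). The other called members were Fmod, Gsn, Col14a1, Cilp and Dcn, with differences of 2.95, 1.78, 1.10, 0.95 and 0.88. Scx and Mkx, transcription factors of tendon cells, and Tnmd, a tendon surface protein, were not called, with differences of -0.78, 0.06 and 0.08. Pdgfra and Col3a1, which many fibroblasts express, differed by -0.69 and 0.57 and were not called either.

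**Figure D3:**
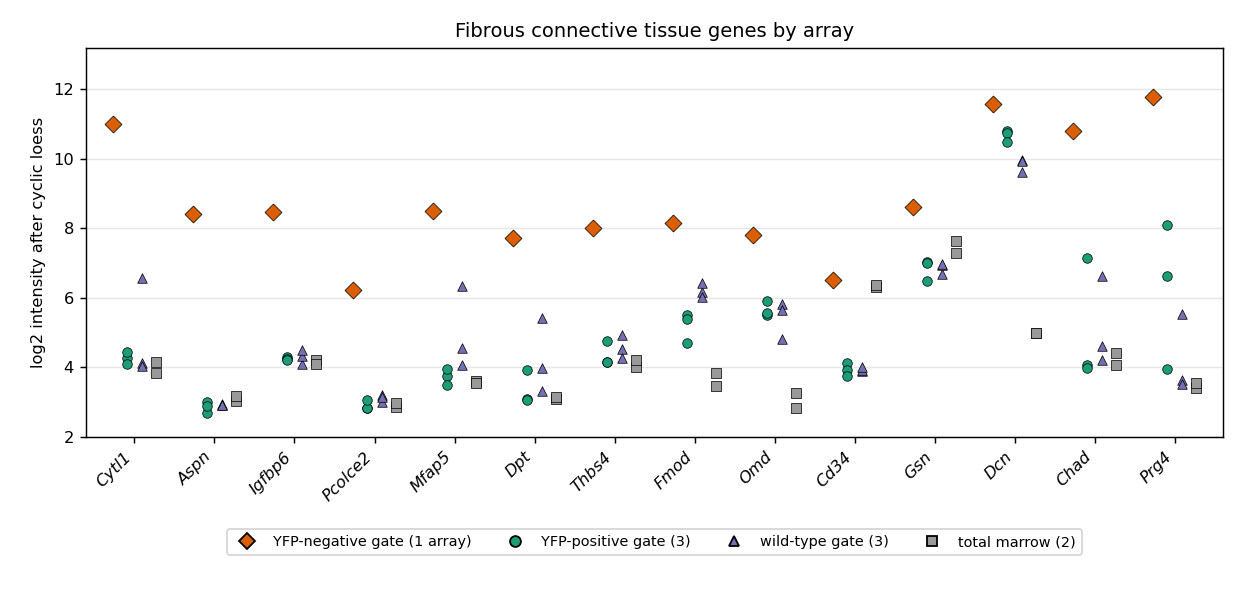
Log2 intensity after cyclic loess of 14 connective tissue genes (x axis) on each array, with the YFP-negative array as a diamond, 3 YFP-positive arrays as circles, 3 wild-type arrays as triangles and 2 total marrow arrays as squares. The diamond is the highest point for all 14 genes, whereas single YFP-positive or wild-type arrays rise partway for Cytl1, Mfap5, Dpt, Chad and Prg4. The genes were chosen with their values known, and all but Chad and Prg4 were called higher. Their shared position thus follows in part from the choice, and 19.0% of all rows lay above all 8 other arrays.

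Small leucine-rich proteoglycans sit on collagen fibrils and set their spacing. Of 14 measured members, 4 were called higher and 0 lower, with a median difference of 0.74. Besides Aspn these were Fmod (fibromodulin), Omd (osteomodulin) and Dcn (decorin). Fmod had 5.50, 4.70 and 5.40 in YFP-positive, 6.03 to 6.43 in wild-type and 8.15 in YFP-negative cells. Omd had 5.50, 5.55 and 5.90 in YFP-positive cells against 7.80, and it lost its call (adjusted p = 0.0336, limma) in 5 of the 8 fits that left out 1 array. Dcn was abundant throughout, at 10.81, 10.75 and 10.50 in YFP-positive cells against 11.57 (adjusted p = 0.0481), and it stayed called in 1 of those 8 fits. Other members were bright in both gates and not called: Bgn (biglycan) had 12.26 in YFP-negative and 11.89 to 12.12 in YFP-positive cells, and Prelp had 11.73 against 11.06 to 11.70.

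Chad and Prg4 had 2 of the largest differences without being called, and they are named here after their values were seen. Chad encodes chondroadherin, a leucine-rich protein of cartilage and tendon, and it had 4.06, 3.97 and 7.14 in YFP-positive cells and 10.79 in YFP-negative cells. Prg4 encodes lubricin, the lubricant of joint and tendon surfaces, and it had 6.64, 3.96 and 8.10 against 11.77. The groups did not overlap, and 31.8% of all rows likewise lay above all 3 YFP-positive arrays. Single arrays were raised, however: YFP-positive replicate 3 for both genes, and wild-type replicate 2 at 6.63 for Chad and 5.53 for Prg4. The differences were 5.73 ± 1.35 (adjusted p = 0.0623, limma) and 5.54 ± 1.45 (0.0828). Of 17 chondrocyte genes 2 were called higher and 0 lower, with a median of 0.51. The called members, Acan (aggrecan) and Sox5, were at 4.37 and 4.25 in YFP-negative cells, under the median of all values (4.53), so their sizes are not resolved, and they stayed called in 5 and 1 of the 8 leave-out fits. Col2a1, the main cartilage collagen, had 5.60 against 5.62 to 6.63, and the cartilage regulator Sox9 had 6.12 against 5.30 to 5.60, with neither called.

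Few collagens were called. Of 17 fibrillar and fibril-associated collagens 1 was called higher and 1 lower, near the shares of all rows (2.62% and 1.36%), and the median was 0.07. The fibril-associated Col14a1 had 3.89, 4.06 and 4.01 in YFP-positive cells against 5.09 in YFP-negative cells, a difference of 1.10 ± 0.12 (adjusted p = 0.00971, limma). Col1a2, a chain of type I collagen, was lower, at 8.93 against 9.62, 9.86 and 9.75, with a call (0.0282) that was lost without wild-type replicate 1 (or 2) and without either total marrow array. The partner chain Col1a1 was at 7.46 against 7.20 to 7.62 and was not called. In the list of collagen processing and cross-linking, 1 of 20 was called higher (Pcolce2) and 1 lower. The lower one was Serpinh1, the collagen chaperone HSP47, with 10.21, 10.01 and 9.59 in YFP-positive cells against 8.30, a difference of -1.64 ± 0.26 (adjusted p = 0.0237), lost without either total marrow array (0.0543).

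Of 15 elastic fibre genes 3 were called higher and 1 lower, with a median of 0.18. Mfap4, a microfibril partner, had 3.16, 3.10 and 2.97 in YFP-positive cells against 4.64, and Fbln2 (fibulin 2) had 4.22, 4.07 and 4.29 against 5.0, with a call that held in 2 of the 8 fits that left out 1 array. Mfap5 was the third. Ltbp2, a latent TGF-beta binding protein of microfibrils, fell from 10.10, 10.42 and 10.08 to 8.90, a difference of -1.30 ± 0.23 (adjusted p = 0.0304, limma) that was not called without wild-type replicate 1 or either total marrow array. Of 23 matricellular and interstitial glycoproteins 4 were called higher and 0 lower, with a median of 0.29. They were Thbs4, Sparcl1 (difference 1.80), Ccn3 (1.59) and Smoc2 (0.76), and the last 3 stayed called in 6, 4 and 4 of the 8 leave-out fits. Sparc and Tnc, bright in both gates, differed by 0.29 and 0.14 without a call. Of 18 basement membrane genes 1 was called higher, Col15a1 (0.63, called in 1 of the 8 leave-out fits), and 1 lower. The lower one was Agrn, the gene of agrin, at 4.20 against 5.91, 5.91 and 5.56, which stayed called in all 8.

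**Figure D4:**
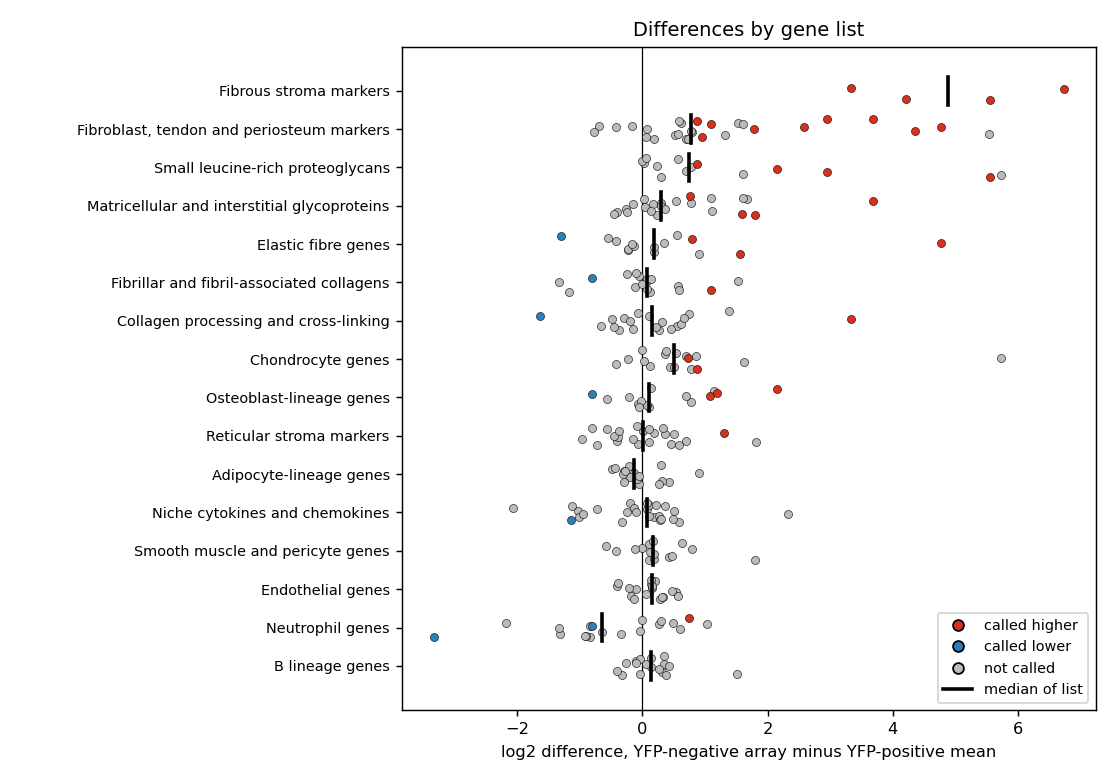
Log2 difference of the YFP-negative array from the YFP-positive mean for each measured member of 16 gene lists (points, coloured by the limma call), with the list median as a black bar. Medians of the fibroblast and proteoglycan lists are 0.79 and 0.74, and those of the reticular, adipocyte and endothelial lists are 0.01, -0.13 and 0.15.

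The genes that define the gate, and Il7 itself, were not called between the YFP-negative and YFP-positive cells. Il7 had 7.21, 7.78 and 6.49 in YFP-positive, 7.78, 7.64 and 7.32 in wild-type and 7.03 in YFP-negative cells, against 3.06 and 2.93 in total marrow. The YFP-negative value lay within the YFP-positive range, and the difference was -0.13 with a 95% interval from -1.15 to 0.89, so a change of about 1 log2 unit either way is not resolved. Enpep was at 6.81 against 5.79, 7.64 and 6.73, and Icam1 at 6.66 against 6.70, 6.41 and 6.26. Both proteins were sorted for, and both transcripts lay within the YFP-positive range. Ptprc was at 3.86 against 3.63 to 3.77, and at 9.62 and 9.70 in total marrow. The signs of the small Enpep, Ptprc and Il7 differences turned under some rescalings or leave-outs.

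Reticular stroma markers were bright in YFP-negative cells as in YFP-positive cells, with members somewhat higher and somewhat lower. Their mean log2 intensity was 10.18 in the YFP-negative array, 10.03 to 10.23 in YFP-positive and 4.11 to 4.17 in total marrow arrays. Of 23 measured, 1 was called higher and 0 lower, about the share of all rows, and differences ran from -0.96 for Esm1 to 1.81 for Nt5e with a median of 0.01. That median moved with the scaling, to 0.42 with arrays centred on their medians and -0.17 after quantile normalization, so a small shift of this list is not resolved. The YFP-negative value lay above the YFP-positive range for 9 members and below it for 8, not far from the shares of all rows (31.8% and 30.4%). For 13 the 95% interval lay within 1 log2 unit of 0, against 61.1% of all rows, so for the other members a change of 1 log2 unit is not resolved. Cxcl12, the chemokine that retains blood progenitors in marrow, had 12.21, 12.35 and 12.44 in YFP-positive cells and 12.43 in YFP-negative cells. Lepr had 11.21, 11.42 and 11.46 against 11.30, and Kitl had 10.69, 10.65 and 10.52 against 10.98. Vcam1, which holds lymphoid cells to stroma, had 11.71 against 11.19 to 11.60. The transcription factors Foxc1 and Ebf3, both known to maintain these cells, were at 8.85 and 9.76, under their YFP-positive ranges of 9.56 to 9.80 and 10.03 to 10.54, and neither was called (differences -0.80 and -0.57). The called member was Nr2f2, an orphan nuclear receptor of mesenchymal and venous cells, at 6.14 against 4.83, 5.01 and 4.66 (adjusted p = 0.0257, limma, and 0.0551 without either total marrow array). Of 17 adipocyte-lineage genes 0 were called, with a median of -0.13. Adipoq (adiponectin) had 11.82 against 11.63 to 12.06, Lpl (lipoprotein lipase) 11.73 against 11.27 to 11.51, and the adipogenic regulator Pparg 8.38 against 8.50 to 8.89. In bulk arrays a smaller share of cells of a type and less RNA per cell cannot be told apart.

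**Figure D5:**
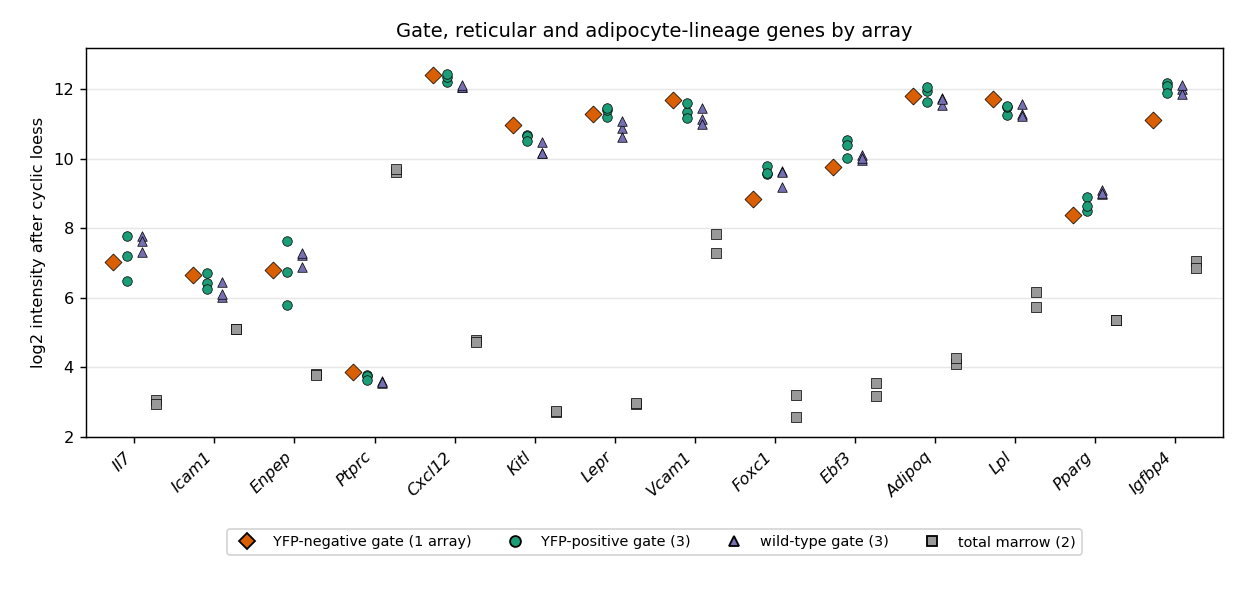
Log2 intensity after cyclic loess of 14 genes of the gate, of reticular stroma and of the adipocyte lineage on each array (symbols: YFP-negative diamond, YFP-positive circles, wild-type triangles, total marrow squares). Cxcl12, Lepr and Adipoq are at 12.43, 11.30 and 11.82 in the YFP-negative array, within the range of the YFP-positive arrays, and Igfbp4 lies below it.

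Among niche cytokines and signals 1 gene was called. Of 26 measured, Bmp6 was lower, at 8.99 against 10.21, 10.00 and 10.18 in YFP-positive cells, a difference of -1.14 ± 0.21 (adjusted p = 0.0355, limma). It was not called without YFP-positive replicate 1 or without any 1 wild-type array, and the wild-type cells, at 9.42 to 9.70, lay between the groups. The other members at least 1 log2 unit under the YFP-positive mean, none called, were Ccl7 (-2.06), Cx3cl1 (-1.13), Flt3l (Flt3 ligand, -1.03) and Jag1 (-1.01). Cxcl13, a chemokine that attracts B cells, had the largest difference upwards without a call, at 7.34 against 3.80, 6.48 and 4.75 in YFP-positive and 6.16 to 7.41 in wild-type cells. Among 14 insulin-like growth factors and binding proteins, Igfbp6 was called higher and Igfbp4 lower. Igfbp4, among the brightest rows of these cells, had 12.19, 12.11 and 11.91 in YFP-positive cells against 11.12, and the call (0.0337) was lost in 5 of the 8 fits that left out 1 array. Of 37 Wnt pathway genes the inhibitor Nkd2 was called lower (-1.38) and 0 higher, and of 37 BMP and TGF-beta pathway genes Bmp3 was called higher (1.08) beside Bmp6. Nkd2 and Bmp3 stayed called in 5 and 3 of the 8 leave-out fits. Of 15 osteoblast-lineage genes Omd, Dmp1 (called in 4 of the 8) and Bmp3 were called higher and Col1a2 lower, with a median of 0.10; the bone matrix gene Ibsp had 12.50 against 11.51 to 11.92 and was not called. Among 23 matrix proteases and inhibitors Mmp11 (-1.89) and Adamts4 (-0.83) were called lower, and they stayed so in 6 and 5 of the 8.

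Among the named genes outside the lists, those called higher by the largest differences were Ublcp1, Ormdl1, Cstad and Zfp759, at 3.34, 3.27, 2.99 and 2.97. Ormdl1 is a regulator of sphingolipid synthesis, and it had 5.48, 4.92 and 4.62 in YFP-positive cells against 8.27. For Ublcp1, a phosphatase of the proteasome, the YFP-positive arrays (4.72, 5.05 and 4.63) also lay below wild type (6.22 to 6.51), and YFP-negative cells were at 8.14. With predicted genes and small RNAs left aside, those called lower by the largest differences were Mpo, Oaz2, Plekha2, Ube2h, Pcnx3, Xiap, Tmem223, Ndufa13, Il3ra, Ppm1m, Ogt and Pelo, from -3.33 to -2.12. Ogt, the enzyme that adds O-linked N-acetylglucosamine to proteins, had 8.54, 9.24 and 8.94 against 6.75, and Xiap, an inhibitor of caspases, had 6.28, 6.41 and 6.59 against 4.16. Oaz2 (antizyme, an inhibitor of polyamine synthesis) had 8.61, 9.30 and 9.25 against 6.60. Ogt, Xiap, Oaz2, Ube2h and Ndufa13 stayed called in all 8 fits that left out 1 array, and Mpo and Tmem223 in 1 of the 8.

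Blood lineage lists in the YFP-negative array lay near their levels in the other sorted cells and far under total marrow. The neutrophil list of 19 genes had a mean log2 intensity of 4.58 there, against 4.50 to 5.45 in YFP-positive, 3.86 to 4.54 in wild-type and 10.73 in both total marrow arrays, with 2 members called lower and 1 higher. Mpo, the granule peroxidase of neutrophil precursors, had 7.66, 7.91 and 6.14 in YFP-positive cells, 3.91 in YFP-negative cells and 3.79 to 4.52 in wild-type cells, so that it set the YFP-positive arrays apart from both other gates. The part of neutrophil transcripts in its call (adjusted p = 0.0373, limma) was not tested. The B lineage (17 genes), monocyte (15), erythroid (11), mast cell and eosinophil (9) and MHC class II (7) lists had 0 calls. Their mean log2 intensities in the YFP-negative array were 4.34, 4.17, 4.13, 3.92 and 4.39, each within the range of the YFP-positive arrays, against 7.42 to 8.24 in total marrow. Single members stood higher without a call: Vpreb1, a surrogate light chain gene of early B cells, had 6.49 against 4.12, 5.92 and 4.90 in YFP-positive and 4.67 to 6.0 in wild-type cells, and Gata2 had 5.52 against 4.27 to 5.05. Of 18 endothelial genes 0 were called and 16 were under the median of all values in all 4 arrays. Of 15 smooth muscle and pericyte genes 0 were called; Rgs5, a pericyte marker, had 7.06 against 4.40, 6.70 and 4.69. Among T and NK cell genes Thy1, which fibroblasts also carry, was called higher (1.81, in 2 of the 8 leave-out fits), while 13 of the 15 members were under the median of all values in all 4 arrays. Ppbp and Mmp8, of megakaryocytes and neutrophils, were called higher at levels of 4.24 and 3.99, where sizes are not resolved, and stayed called in 3 and 5 of the 8.

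Of 27 immediate early and stress genes 3 were called higher and 0 lower: Myc, at 10.12 against 8.17, 7.78 and 8.77, the heat shock gene Hspa1a, at 6.74 against 5.28 to 5.54, and Nr4a2. Nr4a2 was called in 0 of the 8 fits that left out 1 array, Myc in 3 and Hspa1a in 6. Of 19 hypoxia and glycolysis genes Ndrg1, Ldha and Slc16a3 were called higher (1.40, 1.39 and 0.75) and Tpi1 lower (-1.49), and they stayed called in 8, 6, 4 and 5 of the 8. Of 29 cell cycle genes the D-type cyclin Ccnd2 was called lower (-1.17). Of 23 ribosomal protein genes 1 was called higher (Rplp2, 2.08) and 2 lower (Rps2, -1.91, and Rplp1, -1.10). Of the 25 respiratory chain genes in the list 0 were called. Ndufa13, a respiratory chain subunit outside that list, was called lower (-2.20), as given above.

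Set against wild-type gated cells, the YFP-negative array had 994 rows called (4.56%), 653 of them higher and 341 lower. Wild type and YFP-positive arrays had 0 rows called between them by limma, with 2305 at an unadjusted p under 0.05 and a smallest adjusted p of 0.0794. Against wild type, the log2 differences were 6.09 for Cytl1, 5.49 for Aspn, 4.15 for Igfbp6, 3.12 for Pcolce2, 3.51 for Mfap5 and 3.48 for Dpt, each called. Both comparisons share the 1 YFP-negative array, so they are not independent of each other. Some named genes were called against YFP-positive and not against wild type, among them Nr2f2, Myc, Mpo and Bmp6 (adjusted p 0.103, 0.0516, 0.897 and 0.159, limma). Tmem223, Dmp1, Ldha, Sox5, Col15a1, Ppbp and Cebpe were others (0.0902, 0.067, 0.0593, 0.0569, 0.0569, 0.0518 and 0.342). No row was called between wild type and YFP-positive, which is the test of that contrast.

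Sex-linked transcripts differed between the arrays. Xist, expressed from the inactive X chromosome, had 3.96, 9.40 and 9.36 in YFP-positive replicates 1, 2 and 3, 8.89 to 9.19 in wild-type cells and 5.29 in YFP-negative cells. The Y-linked Kdm5d had 5.65, 3.35 and 3.59 in the same YFP-positive replicates, 3.07 to 3.23 in wild-type cells and 5.18 in YFP-negative cells, and Eif2s3y ran likewise (4.72, 2.56 and 2.91 against 4.13). Uty, also Y-linked, had 4.20, 2.74 and 3.02 against 3.18, close to replicate 3. The YFP-negative array was thus between YFP-positive replicate 1 and replicates 2 and 3 for all 4 genes, and none of the 4 was called. The labels do not give the sex of the mice. Some genes that were not called also stood high in YFP-positive replicate 1 and are named after their values were seen. Serpina3n, a secreted protease inhibitor, had 11.36, 4.72 and 8.10 in YFP-positive cells, 4.30 to 4.51 in wild-type cells and 11.71 in YFP-negative cells. Nt5e, the ecto-nucleotidase CD73, had 7.05, 5.0 and 4.84 against 7.44, and C2, a complement component, had 8.80, 7.21 and 6.53 against 9.02. Timp3, a metalloproteinase inhibitor, had 9.03, 6.89 and 7.51 against 9.62. For these 4 genes the YFP-negative array lay next to YFP-positive replicate 1, and the part of sex was not tested. Without YFP-positive replicate 1 the counts called were 702 higher and 387 lower.

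Of the small structured RNAs, 2 genes were called lower, and they are named with their kind after the values were seen. Rmrp, the RNA of the RNase MRP complex, had 10.65, 10.88 and 11.74 in YFP-positive cells against 7.20, and Rpph1, the RNA of RNase P, had 12.47, 12.19 and 12.72 against 9.66. Both were called lower (adjusted p 0.0316 and 0.0217, limma). Rny3, a Y RNA, had 11.34, 11.27 and 10.59 against 7.82 and was not called. Of 58 rows of small nucleolar RNAs 0 were called lower and 1 higher. Yet 14 (24.1%) lay at least 1 log2 unit under the YFP-positive mean, against 3.46% of all rows. As far above it lay 5 (8.62%), against 5.11% of all rows. The median difference of the 58 rows was -0.24 after cyclic loess and -0.84 in ranks. Of 299 microRNA rows 9 (3.01%) were called higher, near the 2.62% of all rows, and 0 lower, against 1.36%, with a median difference of 0.04. Their median level in the YFP-negative array was 3.27, under the median of all values (4.53). Gas5, a host gene of small nucleolar RNAs, had 4 rows: its brightest differed by 0.39 and the other rows by -2.79, -0.98 and -1.18, none called. The part of RNA quality or amplification in these values was not tested.

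Hmcn1, which encodes the giant matrix protein hemicentin 1, was split over 77 rows, of which 7 were called higher and 0 lower. Of all rows, 2.62% were called higher and 1.36% lower. Among the 7 called rows, the 3 with the largest differences were at 5.82, 5.39 and 5.73 in YFP-negative cells and between 2.58 and 3.19 in YFP-positive cells, with differences of 3.16, 2.64 and 2.68. The other rows called rose by 0.59 to 1.15, and 70 rows were not called. Penk, the proenkephalin gene, and Anpep, the surface aminopeptidase CD13, were also chosen after their values were seen. Penk had 4.14, 3.56 and 4.63 in YFP-positive cells against 6.60, and Anpep had 5.46, 4.70 and 4.80 against 7.80, with wild type at 5.64 to 6.45. Both were called higher (2.50 and 2.82).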

How the data were processed

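Expression was profiled on 9 Affymetrix Mouse Gene ST 1.0 arrays after NuGEN whole-transcript amplification (Ovation Pico), per the labels' protocols. The authors deposited log2 values, 1 per transcript cluster and array; Affymetrix Expression Console 1.3.1 and RMA are named in the submitters' processing notes. Whether all arrays were summarised together is not given in the sources used here. Of 35556 rows, 21789 had 1 gene symbol in the platform annotation (1621 had several and 12146 none, and these were left out).

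The 9 arrays were normalized by cyclic loess (limma 3.58.1, R 4.3.3), because the YFP-negative array lay lower than the others. A limma fit with a mean per group (5 residual and 2.27 prior degrees of freedom) gave differences, standard errors and two-sided p-values, adjusted by Benjamini-Hochberg over all rows; a row was called under 0.05. The lone YFP-negative array was assumed to vary like the other groups. Those groups did not vary alike: 1279 to 1727 rows lay at least 1 log2 unit apart between YFP-positive arrays, and 322 to 609 between wild-type arrays. With 1 spread per row for all groups, the standard errors may be too small for the reporter-strain arrays. The number of arrays limits the precision. RMA values have no detection flag, so the median of all values (4.53) marks dim rows, and differences from dim rows are compressed.

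Of 670 genes in 36 lists, 617 were measured. Members and lists were chosen with earlier results of these data known. For genes with several rows, the row brightest on average over all arrays was used. Genes were named by rule: the gate genes and 4 markers, the 12 largest called differences in each direction outside the YFP-positive range (predicted genes, small RNAs, olfactory receptors and immunoglobulin segments excepted), and from every list at most 4 of its called members, or its 2 largest differences if it had no call. Other genes are said to be chosen after their values were seen, or are list members given for their role. Percentiles are ranks within an array. Alternatives were the deposited values, other rescalings, fits on fewer arrays, a filter on dim rows, other moderation and leaving out each array. Promoter windows and gene starts came from RefSeq (GRCm38.p6).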

Additional observations from a re-analysis of the deposited data

How the results depend on the processing

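Counts of rows called higher and lower, 570 and 297 after cyclic loess of the 9 arrays, moved with the scaling. They were 101 and 16421 on deposited values (whose median lay 0.91 lower), 1871 and 641 with arrays centred on their medians, 972 and 711 after quantile normalization, and 698 and 901 on ranks. Cyclic loess of 7 arrays, without total marrow, gave 194 and 71. Cyclic loess of 4 arrays and a fit on 4 arrays gave 0 and 0 in limma, with 1666 and 1260, and 1746 and 1172, at an unadjusted p under 0.05. A filter on dim rows, which tested 11341 rows, gave 247 and 171. Trend and robust moderation (600 and 226), array weights (706 and 387) and a minimum of 1 log2 unit among calls (385 and 212) kept the counts within 1.5 times. With no test, 1091 and 712 rows were at least 1 log2 unit from the YFP-positive mean and outside its range. Leaving out 1 array gave 183 to 752 higher and 61 to 469 lower. The cause of these moves was not tested, beyond the smaller number of arrays or rows.

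Of 63 called named genes, 60 stayed called with median centring and with quantile normalization, 52 on ranks and 25 after loess of 7 arrays, all with their direction kept. List medians moved as well. With median centring, quantile normalization and ranks the reticular list had 0.42, -0.17 and -0.16, and the adipocyte list 0.26, -0.25 and -0.22. In the same order the fibroblast list had 0.90, 0.71 and 0.67, and the proteoglycan list 0.81, 0.49 and 0.36. Signs turned on deposited values, before allowing for the shift, for 23 genes: Icam1 (-1.05), Enpep (-1.14), Ptprc (-1.11), Pnpla2 (-0.39), Acan (-0.00), Sox5 (-0.15), Fbln2 (-0.26), Smoc2 (-0.21), Col15a1 (-0.49), C7 (-0.09), Acta2 (-0.49), Vwf (-0.67), Flt4 (-0.25), Mmp8 (-0.51), Pax5 (-0.77), Rhd (-0.48), Tfrc (-0.45), Gata2 (-0.35), Nr4a2 (-0.33), Slc16a3 (-0.51), Sdhc (-0.21), H2-Ab1 (-0.24) and H2-DMa (-0.48). For uncalled genes the sign also turned for Enpep with median centring (-0.02), quantile normalization (-0.04), ranks (-0.05), loess of 7 arrays (-0.00) and without YFP-positive replicate 1 (-0.37). Ptprc turned with median centring (-0.00), quantile normalization (-0.28), ranks (-0.50), loess of 4 arrays (-0.23) and loess of 7 arrays (-0.23), and Il7 without YFP-positive replicate 2 (0.18). Over the fits that left out 1 array, Il7 ran from -0.47 to 0.18 and Enpep from -0.37 to 0.55. No paired analysis was possible because the YFP-negative group has 1 array and shares only 1 replicate number with the others.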
